A study of Mus musculus with 20 samples.

Results

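The 10 RNA-seq libraries from 5 mice without Itgb7 are described here, out of 20 libraries in the series. Itgb7 encodes the beta7 integrin subunit, which pairs with alpha4 or alphaE and guides lymphocytes to the gut. Each mouse gave 2 libraries of sorted small-intestinal epithelial cells, 1 of GFP-low and 1 of GFP-high cells, and the members of this comparison are all libraries labelled Itgb7-/-. All 5 mice were C57BL/6J, 8 weeks old and Itgb7-/-, and carried the Lgr5-GFP reporter, which the Itgb7+/+ mice of the series carried as well. No treatment was recorded for any group. The cells came from EDTA-released crypts, were negative for 7AAD, CD45, CD31 and TER119 and positive for EpCAM, and the GFP gate alone separated the populations. The submitters call GFP-high cells stem cells and GFP-low cells transit-amplifying cells. Mice are numbered 2, 3, 4, 5 and 6 in the sample names, and values given for each mouse follow that order. Nothing in the labels says how many cells or which part of the small intestine went into a library.

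Intestinal crypts hold Lgr5-expressing stem cells at their base, next to Paneth cells that supply Wnt and Notch ligands and secrete antimicrobial peptides. Stem cell daughters divide as transit-amplifying cells and, depending on Notch signalling, become absorptive enterocytes or secretory goblet, enteroendocrine, tuft and Paneth cells. Because GFP is driven from Lgr5, a daughter that has switched the gene off keeps some GFP until the protein is diluted, so a GFP-low gate takes cells that left the stem cell state recently.

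The libraries held between 20986069 and 27083283 counts (GFP-high) and between 20900404 and 27838392 (GFP-low). The populations were deposited as separate tables, and only the 11284 genes with a unique name in both could be compared. Itgb7 is in neither table and its level was not analysed here, so the genotype could not be checked from RNA. Lgr5, the gene that the sort follows, separated the populations in every mouse. The Y-linked genes Ddx3y and Eif2s3y were at 0 in both libraries of mice 2 and 6 and at 10.4 to 20.2 CPM in both libraries of mice 3, 4 and 5, as for 2 libraries of 1 animal.

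Among 11282 genes tested with the mouse as a block, 6458 (57.2%) differed between GFP-low and GFP-high cells at an adjusted p under 0.05. Of these, 3307 were higher in GFP-low cells (29.3% of the genes tested) and 3151 were lower (27.9%). Large differences leaned towards GFP-low cells: 339 genes were at least 4-fold higher there (3%) and 49 at least 4-fold lower (0.434%). In 2099 genes all 5 GFP-low libraries lay above all 5 GFP-high libraries (18.6%), and in 1878 genes they all lay below (16.6%). Of the 6458 genes that passed, 5848 (90.5%) moved the same way in all 5 mice. The test chose these genes from the same 5 differences, so this share is no independent support. Counts of list members given below are read against 29.3% higher and 27.9% lower. These splits depend on the scaling: with library totals in place of trimmed-mean (TMM) factors the median of all genes moved from -0.0111 to -0.27 on the log2 scale, with 1994 genes higher and 5268 lower. Values below are log2 differences, GFP-low minus GFP-high, relative to the TMM scale, and a rise smaller than that shift would change sign on library totals. Levels are CPM (counts divided by the effective library size on the TMM scale) and are compared only within a gene. In bulk RNA, fewer cells of a type and less RNA per cell cannot be told apart.

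**Figure D1:**
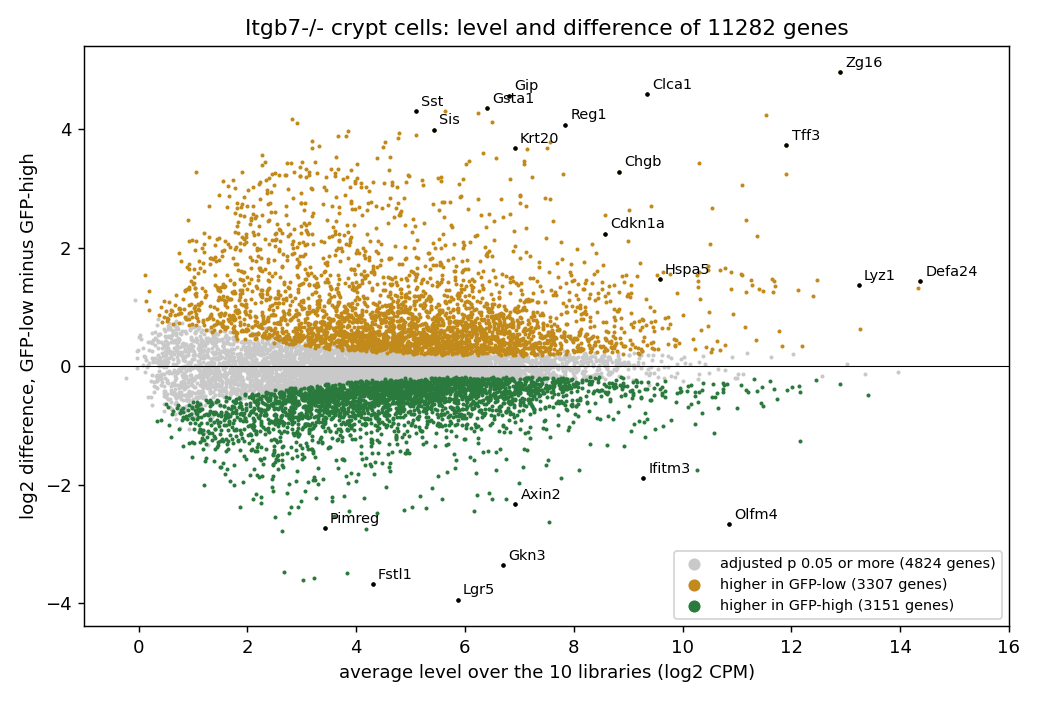
Each point is 1 of 11282 genes in the Itgb7-/- libraries, with its average level in log2 CPM on the horizontal axis and its log2 difference, GFP-low minus GFP-high, on the vertical axis. Gold and green points passed an adjusted p of 0.05 (3307 higher, 3151 lower in GFP-low cells), and differences above 4 lie on the GFP-low side.

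The 10 largest falls among genes with an average of at least 3 log2 CPM were Lgr5 (-3.95), Fstl1 (-3.68), Cyp2e1 (-3.61), Tnfrsf19 (-3.57), Slc1a2 (-3.50), Gkn3 (-3.36), Slc14a1 (-2.75), Pimreg (-2.74), Olfm4 (-2.67) and Scn2b (-2.63). Pimreg is a mitotic gene, and the others belong to the list of intestinal stem cell genes. The 10 largest rises were Zg16 (4.96), Clca1 (4.59), Gip (4.56), Gsta1 (4.36), Sst (4.30), Capn9 (4.27), Fcgbp (4.23), Rbp2 (4.11), Reg1 (4.08) and Sis (4.00). They mark several mature lineages: Zg16, Clca1, Capn9 and Fcgbp are goblet cell genes, Gip and Sst encode enteroendocrine hormones, and Gsta1, Rbp2, Reg1 and Sis are expressed by enterocytes.

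Stem cell genes fell almost without exception. Of 38 stem cell genes tested, 37 were lower in GFP-low cells, 0 was higher and 1 missed the threshold. Their median was -1.93 against -0.0111 over all genes. The 37 that passed also had no overlap between the 5 libraries of each gate. Lgr5, the R-spondin receptor that the reporter follows, stood at 93.3, 119, 121, 109 and 101 CPM in GFP-high libraries and at 5.60, 9.66, 9.97, 4.28 and 6.91 CPM in GFP-low libraries (log2 difference -3.95 ± 0.14 (SE), adjusted p = 3.31e-09). Since GFP driven from Lgr5 chose the cells, this checks the labels and is no independent finding. Olfm4, a secreted glycoprotein of crypt base cells, measured 2808, 3316, 3559.7, 3008 and 3222 CPM in GFP-high and 467, 702, 525, 341 and 522 CPM in GFP-low libraries (-2.67 ± 0.12 (SE), adjusted p = 1.13e-08). Ascl2, the transcription factor that maintains the stem cell state, measured 21.9, 28.1, 27.8, 21.96 and 22.8 CPM and 5.00, 3.76, 4.55, 5.07 and 3.94 CPM (-2.45 ± 0.14 (SE), adjusted p = 3.83e-08). All GFP-low libraries were below all GFP-high libraries for the 3 genes, and mouse 5 had the lowest GFP-low level of Lgr5 and Olfm4. Gkn3 (-3.36), Igfbp4 (-2.44), Cd44 (-2.25), Soat1 (-1.97), Slc12a2 (-1.76) and Lrig1 (-1.21), a brake on EGF receptors, fell as well.

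Genes that canonical Wnt signalling switches on fell with them. Wnt ligands bind Frizzled and Lrp receptors, R-spondins act through Lgr receptors to remove the ubiquitin ligases Rnf43 and Znrf3, and stabilised beta-catenin then activates genes with TCF/LEF factors, several of which feed back on the pathway. Of 8 feedback genes and inhibitors, 7 fell and 0 rose. The 7 include Lgr5, which the sort follows, so its fall is no independent finding. Axin2, Rnf43, Tnfrsf19 and Znrf3 were also counted among the stem cell genes. Axin2, a scaffold of the beta-catenin destruction complex and a standard readout of the pathway, measured 213, 197, 217, 174 and 210.1 CPM in GFP-high and 47.8, 41.5, 34.7, 40.1 and 36.5 CPM in GFP-low libraries (-2.33 ± 0.095 (SE), adjusted p = 5.38e-09), with no overlap. Rnf43 (-1.79), Znrf3 (-1.20), Sfrp5 (-2.05), a secreted Wnt binder, and Nkd1 (-0.67) were lower in GFP-low cells, and Kremen1 did not pass (0.32 ± 0.15 (SE)). The wider list of Wnt target genes, which shares Lgr5 and other members with the stem cell list, gave 14 falls and 4 rises of 21. The falls included Sox9 (-1.66), Tcf7 (-1.65), Ephb3 (-1.46), Myc (-0.98) and Ephb2 (-0.47), and the rises were Ccnd2 (0.30), Id3 (0.71), the Paneth cell protease Mmp7 (1.43) and the enteroendocrine factor Prox1 (1.47). Ccnd2 missed the threshold on library totals (adjusted p = 0.687).

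Receptors split by member. Fzd2 (-1.99), Fzd7 (-1.77) and Fzd1 (-1.40) fell, whereas Fzd5 (0.69), Fzd4 (0.68) and Fzd9 (1.05) rose, and Lgr4, a homologue of Lgr5, changed by -0.52 ± 0.10 (SE). Wnt3, the ligand made by Paneth cells, rose by 1.17 ± 0.20 (SE), with log2 differences of -0.10, 1.64, 1.56, 1.19 and 1.41 in the 5 mice. Mouse 2 thus showed no rise of Wnt3, and the other 4 did. The core of the pathway moved little: Ctnnb1, which encodes beta-catenin, differed by -0.16 ± 0.076 (SE) and Csnk1a1 by -0.058 ± 0.081 (SE), neither passing, and of 17 members of the destruction complex and nuclear factors 5 fell and 1 rose. Fzd4 missed the threshold on library totals (adjusted p = 0.0955). Fzd9 missed it without the mouse block (adjusted p = 0.146). Fzd4 and Fzd9 missed it with 1 or more of the mice left out in turn (highest adjusted p = 0.0819 and 0.0569).

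RefSeq promoter windows (GRCm38.p6, 250 bases before to 50 after the start of a transcript) were matched to 8696 of the 11282 genes tested. The TCF/LEF letters CTTTGAA or CTTTGAT, searched on both strands, lay in 5 of 36 windows of stem cell genes (13.9%) and in 4 of 20 windows of Wnt target genes (20.0%), against 8.65% of all 32851 windows and 6.14% of the windows of tested genes. In the feedback list 1 of 7 windows held them. Besides Tnfrsf19, no Wnt target gene with a match fell, and Mmp7, which held one, rose (1.43). The shares thus describe the lists and not the fall of their members. Tnfrsf19, which encodes the receptor Troy and marks stem cells, is shown because it had a match in both the stem cell and the Wnt target list. The sequence is the 250 bases before a start at chr14:61037988-61038237, minus strand, written 5′ to 3′ with the match in capitals, 202 bases before the start.
Tnfrsf19: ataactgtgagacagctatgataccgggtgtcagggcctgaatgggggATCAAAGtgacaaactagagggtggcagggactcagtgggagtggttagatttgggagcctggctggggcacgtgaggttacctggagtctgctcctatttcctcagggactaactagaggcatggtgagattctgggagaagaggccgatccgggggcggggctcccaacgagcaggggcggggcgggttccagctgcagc
Tnfrsf19 measured 12.9, 22.2, 20.8, 11.9 and 16.4 CPM in GFP-high libraries and 0.602, 1.71, 2.30, 0.913 and 1.79 CPM in GFP-low libraries (-3.57 ± 0.18 (SE), adjusted p = 2.19e-08). The gates did not overlap. A second window of the gene held no match, and a match describes letters and not a bound site.

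**Figure D2:**
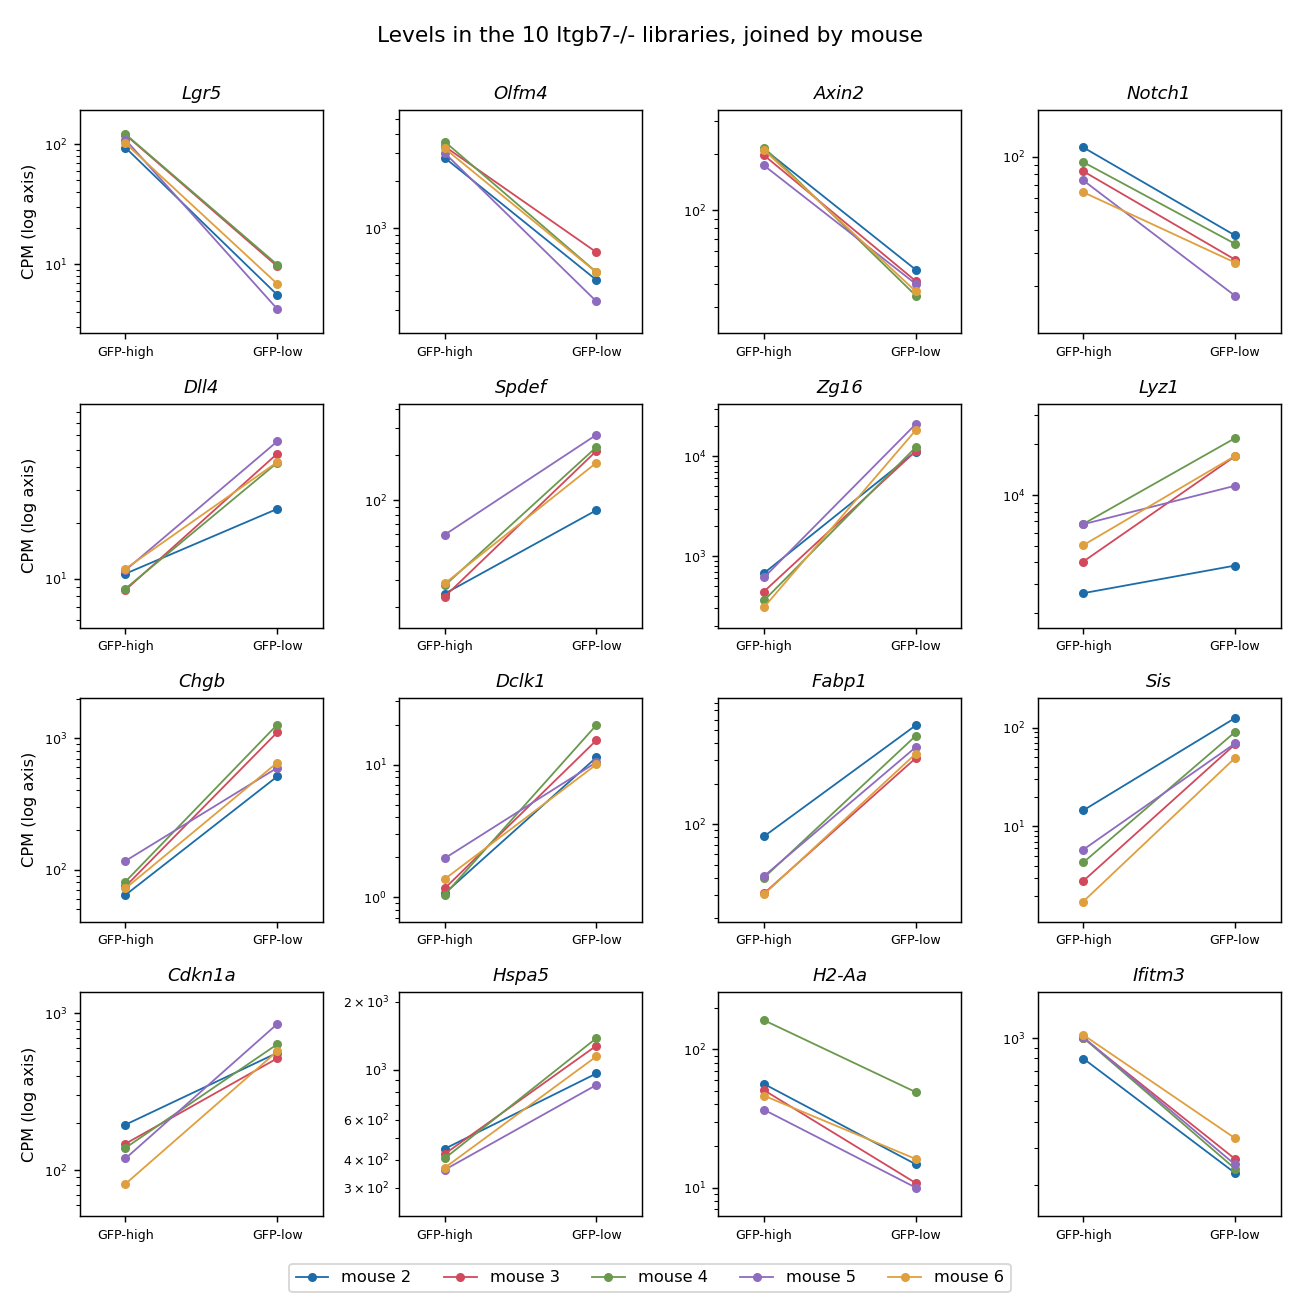
Each panel shows 1 gene in the 10 Itgb7-/- libraries, with CPM on a log axis and a line joining the GFP-high and GFP-low library of 1 mouse. Lgr5, Olfm4, Axin2, Notch1, H2-Aa and Ifitm3 go down in all 5 mice and the other 10 genes go up in all 5, while for Lyz1 and H2-Aa the mice differ so much in level that the gates overlap.

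Notch signalling members moved in opposite directions. Ligands on one cell activate Notch receptors on its neighbour, which keeps the neighbour out of the secretory fate. The receptors Notch1 and Notch2 fell: Notch1 measured 112, 83.3, 93.3, 74.3 and 64.1 CPM in GFP-high and 37.5, 27.7, 33.8, 17.7 and 26.7 CPM in GFP-low libraries (-1.59 ± 0.11 (SE), adjusted p = 1.53e-07), and Notch2 changed by -1.49 ± 0.11 (SE). The ligand Dll4 rose from 10.6, 8.68, 8.82, 11.1 and 11.3 CPM to 23.8, 47.4, 42.4, 55.3 and 42.7 CPM (2.03 ± 0.16 (SE), adjusted p = 6.75e-07), and Dll1 by 0.98 ± 0.14 (SE). Mouse 2 had the lowest Dll4 level among the GFP-low libraries, still above all GFP-high libraries. Mfng (1.45) and Rfng (0.54), which glycosylate Notch receptors, and the gamma-secretase parts Psen2 (0.38) and Ncstn (0.66) rose, and the E3 ligase Dtx4 fell (-1.32). In all, 7 of 25 Notch genes rose, 9 fell and 9 did not pass, counts near the background in both directions. Rfng and Psen2 missed the threshold on library totals (adjusted p = 0.0644 and 0.335). Mfng missed it without the mouse block (adjusted p = 0.0689). Mfng missed it with 1 or more of the mice left out in turn (highest adjusted p = 0.0546).

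Eph receptors and ephrins, which keep crypt cells in position, showed the same kind of split, with 7 falls and 5 rises of 13. Ephb3, the receptor of crypt base cells, fell by 1.46 ± 0.11 (SE) and Epha4 by 1.59 ± 0.16 (SE). Efnb2, a ligand of EphB receptors, rose from 1.61, 0.777, 0.954, 1.19 and 0.769 CPM to 11.7, 9.52, 10.9, 8.43 and 7.32 CPM (3.18 ± 0.20 (SE), adjusted p = 7.94e-08), without overlap, and Efnb1 rose by 0.57 ± 0.089 (SE). In the EGF receptor family, Egfr (-0.50), Nrg4 (-1.56), Btc (-0.73), Lrig2 (-0.41) and Lrig1 fell, the ligands Hbegf (0.41) and Egf (1.5) and the inhibitor Errfi1 (0.82) rose, and Erbb2 (0.023 ± 0.071 (SE)) and Erbb3 (-0.083 ± 0.10 (SE)) did not pass. Of 18 BMP genes tested, 4 rose, 7 fell and 7 did not pass. The co-receptor Rgmb (-2.23), the receptor Acvr2b (-1.0) and Smad4 (-0.49) fell, and the BMP-induced repressors Id3 and Smad7 (0.49) rose. Bambi and the other Id genes of that list did not pass. In the list of Hippo genes and YAP targets, 6 of 17 fell, 1 rose and 10 did not pass. Yap1, the effector of Hippo signalling, fell by 0.67 ± 0.10 (SE), and Wwtr1 (-1.06), Tead2 (-1.20) and Tead1 (-0.39) fell too. Hbegf and Smad7 missed the threshold on library totals (adjusted p = 0.302 and 0.286). Hbegf and Smad7 missed it without the mouse block (adjusted p = 0.108 and 0.133). Hbegf, Smad7 and Tead1 missed it with 1 or more of the mice left out in turn (highest adjusted p = 0.0728, 0.12 and 0.0716).

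Cell division genes were lower in the cells labelled transit-amplifying. Of 65 genes of G2 phase and mitosis, 61 fell and 1 rose (median -0.65), and of 52 S phase genes 36 fell and 3 rose (median -0.50). Cenpf, a kinetochore protein, measured 209, 154, 232, 187 and 196 CPM in GFP-high libraries and 113, 76.7, 105, 79.1 and 107 CPM in GFP-low libraries (-1.03 ± 0.080 (SE), adjusted p = 5.33e-07). Every GFP-low library was below every GFP-high library for Cenpf. Pimreg (-2.74), Psrc1 (-2.05), Ncapd2 (-0.98), a condensin subunit, Kif23 (-0.84) and Hmgb2 (-0.64) fell too, and the exception was Cenpa, the centromeric histone, which rose by 0.60 ± 0.18 (SE) with overlapping gates. In S phase, Cdca7 (-1.88), Prim1 (-0.86), a primase subunit, and Gins1 (-0.83), part of the replicative helicase, fell, Pcna (-0.041 ± 0.071 (SE)) and Tk1 (-0.12 ± 0.11 (SE)) did not pass, and Rrm2 (0.43), Ccne1 (0.30) and Gins4 (0.27) rose. On library totals no gene of either list was higher. Together the 65 mitotic genes took 0.860%, 0.702%, 0.777%, 0.671% and 0.717% of the counts in GFP-high libraries and 0.560%, 0.363%, 0.377%, 0.367% and 0.437% in GFP-low libraries, lower in all 5 mice (exact two-sided sign-flip permutation p = 0.0625, the smallest that 5 pairs allow). Cenpa, Rrm2, Ccne1 and Gins4 missed the threshold on library totals (adjusted p = 0.114, 0.167, 0.794 and 0.966). Cenpa, Ccne1 and Gins4 missed it without the mouse block (adjusted p = 0.062, 0.202 and 0.11). Ccne1 and Gins4 missed it with DESeq2 (adjusted p = 0.0634 and 0.0508). Ccne1 and Gins4 missed it with 1 or more of the mice left out in turn (highest adjusted p = 0.12 and 0.177).

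The promoters of these genes are known for shared elements, which is why 2 are printed. Matches to the E2F letters TTTGGCGC, TTTCCCGC or TTTCGCGC, on either strand, were in 17 of 48 windows of S phase genes (35.4%) against 1.84% of all windows and 3.51% of the windows of tested genes. For the G2 and mitosis list, the CCAAT box was in 81.7% of 60 windows against 37.4% of all windows and 38.5% of those of tested genes, and the cell cycle homology region TTTGAA in 68.3% against 17.9% and 12.2%. TTTGAA also lies within 1 of the TCF/LEF forms searched. The shares describe the lists and not the fall of their members. Cenpa, which rose, had matches to the CCAAT box and TTTGAA, and so had Cdc20 and Lbr, which did not pass. Cdc6 and Gins3 had an E2F match and did not pass. Cdca7 had the smallest p of S phase genes with an E2F match, 71 bases before its start (chr2:72475969-72476218, plus strand), and Ncapd2 the smallest p of mitotic genes with both elements in the upstream 250 bases (chr6:125191587-125191836, minus strand). The elements named for each gene are in capitals, and the E2F letters TTTGGCGC that end the Ncapd2 sequence are not marked. Ncapd2 holds CCAAT, read on the opposite strand as ATTGG, at 177, 148 and 48 bases and TTTGAA at 123 bases before the start.
Cdca7: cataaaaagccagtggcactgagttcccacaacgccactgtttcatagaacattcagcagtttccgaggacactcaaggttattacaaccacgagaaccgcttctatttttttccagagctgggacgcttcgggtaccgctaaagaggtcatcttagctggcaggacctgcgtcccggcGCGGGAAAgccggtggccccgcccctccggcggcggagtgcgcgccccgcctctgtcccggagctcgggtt
Ncapd2: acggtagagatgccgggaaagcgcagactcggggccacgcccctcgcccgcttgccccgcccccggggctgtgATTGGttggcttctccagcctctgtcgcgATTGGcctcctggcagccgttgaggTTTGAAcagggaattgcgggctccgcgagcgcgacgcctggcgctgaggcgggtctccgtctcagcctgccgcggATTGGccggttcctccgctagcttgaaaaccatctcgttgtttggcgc
Cdca7 measured 314, 339, 353, 323 and 367 CPM in GFP-high and 97.3, 107, 91.1, 69.7 and 98.9 CPM in GFP-low libraries (-1.88 ± 0.092 (SE), adjusted p = 1.59e-08). Ncapd2 measured 133, 114, 121, 114 and 102 CPM and 68.2, 56.5, 56.1, 52.4 and 61.4 CPM (-0.98 ± 0.080 (SE), adjusted p = 7.73e-07). Both genes were lower in every GFP-low library than in any GFP-high library.

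Of 32 regulators of the step from G1 to S phase, 10 rose, 9 fell and 13 did not pass, counts near the background in both directions. Cdk6 (-1.75), Cdk4 (-0.58), Myc and Mycl (-0.87) fell, along with the inhibitor Cdkn1b (-0.91). The inhibitor Cdkn1a, which encodes p21, rose from 195, 148, 139, 119 and 82.0 CPM to 560.5, 517, 636, 856 and 574 CPM (2.23 ± 0.18 (SE), adjusted p = 6.49e-07), and Cdkn1c, which encodes p57, rose by 2.18 ± 0.25 (SE). Mouse 6 had the lowest Cdkn1a level of the GFP-high libraries and mouse 5 the highest of the GFP-low libraries, and the gates did not overlap. The Myc antagonist Mxd1 (1.17) and E2f2 (1.69) rose as well.

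Genes for making ribosomes were lower in GFP-low cells. Of 81 cytosolic ribosomal protein genes 69 fell and 0 rose (median -0.39), and of 65 genes of nucleolar ribosome assembly 49 fell and 2 rose (median -0.39). Npm1 (-0.90 ± 0.083 (SE)) and Ncl (-0.79 ± 0.088 (SE)), the most familiar nucleolar proteins, fell, as did Rpl22 (-0.69), Rpl3 (-0.62) and Rps19 (-0.60), and the assembly factors Bop1 (0.52) and Bysl (0.60) rose. Ribosomal protein genes took 9.99%, 10.8%, 10.7%, 10.01% and 10.1% of the counts in GFP-high libraries and 7.47%, 6.11%, 5.81%, 6.94% and 6.26% in GFP-low libraries. Every GFP-low share was below every GFP-high share (exact two-sided sign-flip permutation p = 0.0625). A share also moves with the other genes in the library, and goblet and Paneth genes took more of the GFP-low counts.

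**Figure D3:**
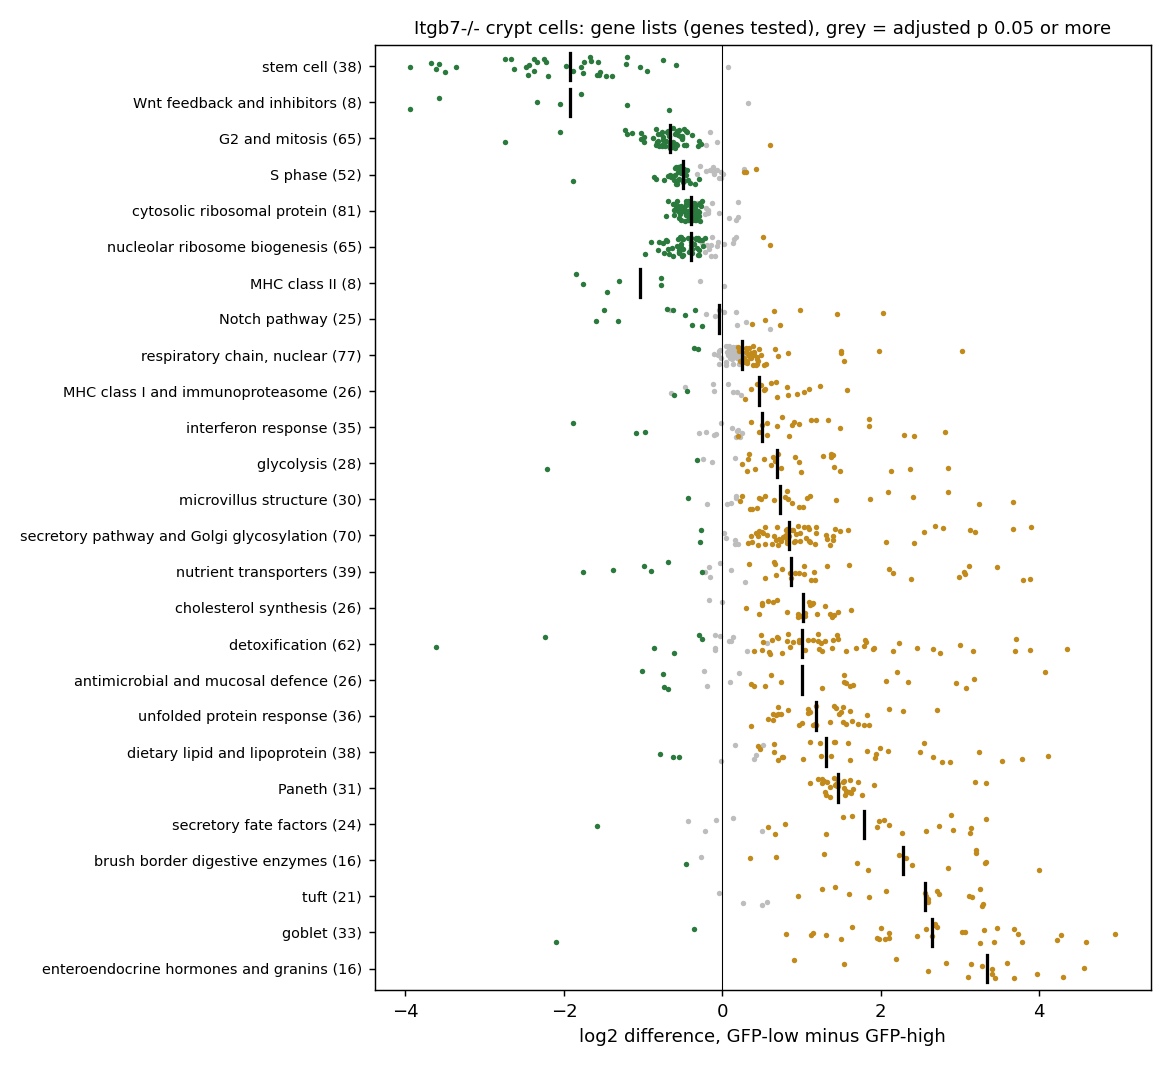
Each point is the log2 difference, GFP-low minus GFP-high, of 1 gene in the Itgb7-/- libraries, by gene list, with the number of genes tested in brackets. Gold points were higher and green points lower in GFP-low cells at an adjusted p of 0.05, grey points did not pass, and black bars are list medians, from -1.93 for stem cell genes to 3.34 for enteroendocrine hormones and granins.

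Transcription factors of the secretory lineages rose. Of 24 tested, 18 were higher in GFP-low cells and 1, Sox4 (-1.59), was lower. Atoh1, which commits cells to the secretory fate, measured 1.40, 1.68, 2.50, 3.85 and 2.44 CPM in GFP-high and 8.38, 12.3, 9.59, 3.78 and 13.8 CPM in GFP-low libraries (1.97 ± 0.35 (SE), adjusted p = 4.40e-04), with overlapping gates. Spdef, which drives goblet and Paneth maturation, rose from 24.3, 23.3, 27.5, 59.4 and 28.4 CPM to 86.2, 212, 224, 270.3 and 177 CPM (2.57 ± 0.17 (SE), adjusted p = 1.5e-07) and did not overlap. Neurog3, the factor that starts the enteroendocrine programme, rose from 18.5, 14.7, 15.3, 28.9 and 18.4 CPM to 38.7, 84.8, 79.0, 108 and 93.4 CPM (2.05 ± 0.17 (SE), adjusted p = 1.22e-06). Mouse 5 had the lowest GFP-low level of Atoh1, within the GFP-high range, and mouse 2 the lowest of Spdef and Neurog3. Later enteroendocrine factors rose by more on the log2 scale: Isl1 (3.33), Lmx1a (3.14), St18 (3.13), Pax4 (2.92), Neurod1 (2.89) and Rfx6 (2.73). Gfi1 (2.27), Creb3l1 (2.10), Creb3l4 (1.95), Bhlha15 (1.64), Xbp1 (1.52), Klf4 (1.31), Foxa3 (0.79), Foxa1 (0.66) and Pdx1 (0.58) completed the named rises. A further 6 factors, among them Insm1, Pax6 and Fev, were listed only in the GFP-low table and were not compared. Pdx1 missed the threshold on library totals (adjusted p = 0.224). Pdx1 missed it with 1 or more of the mice left out in turn (highest adjusted p = 0.125).

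Goblet cell genes rose with them, 31 of 33, with a median of 2.64. Zg16, a lectin of the mucus layer, measured 676, 443, 360.1, 612 and 308 CPM in GFP-high and 11178, 11279, 12321, 21014 and 18254 CPM in GFP-low libraries (4.96 ± 0.23 (SE), adjusted p = 1.19e-08). Tff3, the trefoil peptide, measured 409.8, 453, 404, 939.7 and 520.4 CPM and 4253, 7806, 6414, 10080.0 and 7039 CPM (3.73 ± 0.13 (SE), adjusted p = 3.02e-09). The lowest GFP-low library exceeded the highest GFP-high library several times over for both. Agr2 (3.25), which folds mucins, Ern2 (2.71), the goblet cell stress sensor, and Rep15 (3.68) rose too. The exceptions were Agr3 (-2.10) and the membrane mucin Muc4 (-0.35), which fell. Goblet genes took 0.465%, 0.466%, 0.492%, 0.828% and 0.528% of the counts in GFP-high libraries and 3.29%, 4.71%, 4.66%, 6.17% and 4.84% in GFP-low libraries.

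All 31 tested members of the Paneth list rose, with a median of 1.46, but 3 of them separated the gates without overlap. Lyz1, the Paneth lysozyme, measured 2629.6, 4048, 6760.0, 6737 and 5060.5 CPM in GFP-high and 3831, 17019, 21794, 11385 and 17095 CPM in GFP-low libraries (1.37 ± 0.20 (SE), adjusted p = 1.11e-04). Defa24, an alpha-defensin, measured 5488, 9244, 16138, 13230.0 and 10333 CPM and 8769, 35466, 44418, 29421 and 39024 CPM (1.43 ± 0.17 (SE), adjusted p = 2.16e-05). Each mouse had more in its GFP-low library, yet the GFP-low library of mouse 2 lay within the GFP-high range for both genes. The median rise of the list was 0.66, 1.94, 1.47, 1.18 and 2.06 in the 5 mice. Alpha-defensins and the lysozymes Lyz1 and Lyz2 have near-identical copies, and the values of single members are uncertain. Itln1, a lectin, rose by 1.33 ± 0.21 (SE). Mptx1 (3.19), Spink1 (3.33) and Guca2b (1.91) were the members without overlap, so all alpha-defensins and lysozymes of the list overlapped. Whether Paneth cells alone express these 3 genes was not tested. Paneth genes were also plentiful in GFP-high libraries, at 2.72%, 3.99%, 6.58%, 6.04% and 4.71% of the counts, against 3.57%, 12.5%, 15.2%, 10.6% and 14.4% in GFP-low libraries. Lyz1 and Itln1 missed the threshold with DESeq2 (adjusted p = 0.0584 and 0.0541).

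Enteroendocrine cells, the hormone-secreting cells of the epithelium, gave the largest median of all lists. All 16 hormone and granin genes tested rose (median 3.34), and 5 more, including Cck, were only in the GFP-low table. Chgb, a granin of secretory granules, measured 64.1, 74.4, 80.9, 116 and 71.9 CPM in GFP-high and 511, 1108, 1268, 595 and 652 CPM in GFP-low libraries (3.28 ± 0.21 (SE), adjusted p = 9.55e-08). Sst, which encodes somatostatin, measured 1.98, 1.64, 9.04, 5.32 and 1.10 CPM and 36.4, 75.9, 69.4, 85.3 and 55.9 CPM (4.30 ± 0.31 (SE), adjusted p = 3.23e-07). Gip, an incretin, measured 11.6, 9.15, 7.50, 6.94 and 8.76 CPM and 139.8, 235, 322, 224 and 158 CPM (4.56 ± 0.22 (SE), adjusted p = 1.46e-08). No GFP-low library fell within the GFP-high range for the 3 genes. Chga (3.41), Gcg (3.59), Ghrl (3.14), Tac1 (3.10), Sct (2.82) and the serotonin enzyme Tph1 (3.41) rose, and among 22 genes of their secretion machinery and factors 18 rose and 1, Fam183b (-0.46), fell. Tuft cells, the chemosensory cells, followed, with 17 of 21 genes higher and 0 lower (median 2.55). Dclk1, their classical marker, measured 1.07, 1.17, 1.05, 1.97 and 1.37 CPM in GFP-high and 11.3, 15.3, 19.9, 10.4 and 10.02 CPM in GFP-low libraries (3.28 ± 0.24 (SE), adjusted p = 3.36e-07), without overlap. Lrmp (3.16), Rgs2 (3.11) and Avil (2.55) rose by similar steps.

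The size of the rise differed between mice. Mouse 2 had the smallest median rise for the Paneth, goblet, enteroendocrine hormone and tuft lists (0.66, 2.02, 2.55 and 1.55), and mouse 3 the largest for goblet, enteroendocrine hormone and tuft genes (2.98, 3.92 and 2.76). The second enteroendocrine list, of secretion machinery and factors, had another order, with medians of 2.06, 2.90, 3.11, 1.83 and 2.34, lowest in mouse 5 and highest in mouse 4. The fall of stem cell genes was even across mice, with medians of -2.00, -1.86, -1.99, -1.96 and -1.89. Over all genes the SD of the log2 difference was 0.782 in mouse 2 and between 0.835 and 0.885 in the others. The most variable single genes among those that passed with an average of at least 5 log2 CPM were Sst, Pitx1, Gcg, Gm14851 and Gsta1, of which Gm14851 is a gene model. Pitx1, a homeobox gene, had log2 differences of 3.27, 0.66, 1.97, 2.01 and 0.87 in the 5 mice, and Gcg, which encodes proglucagon, of 2.01, 4.57, 4.12, 3.56 and 3.64.

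**Figure D4:**
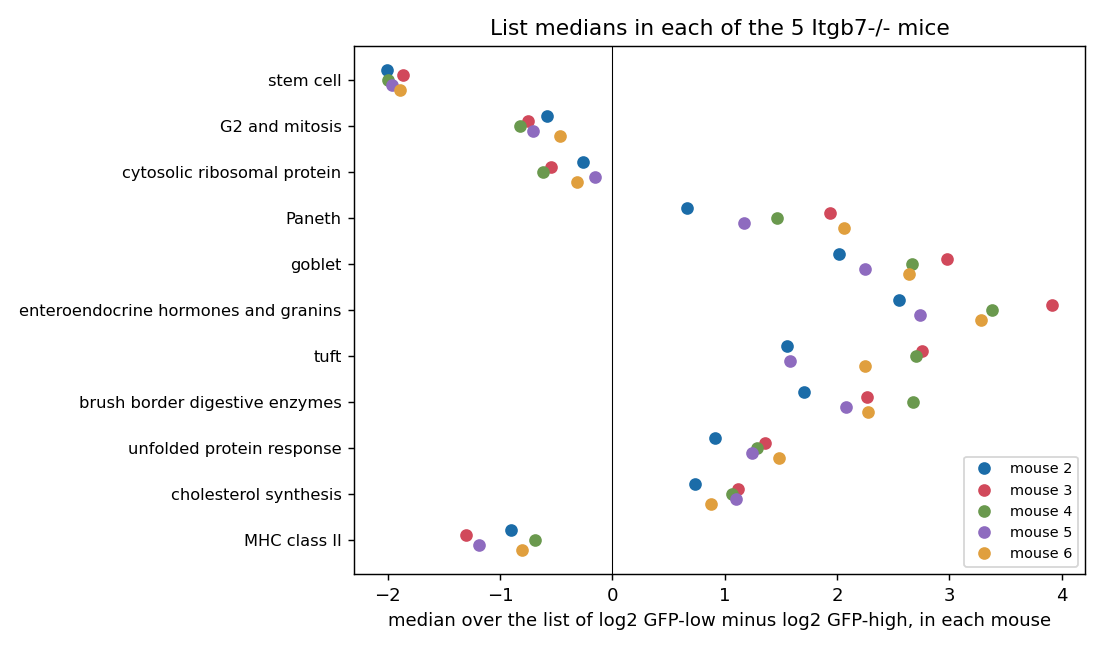
Each point is the median over a gene list of the log2 difference, GFP-low minus GFP-high, in 1 of the 5 Itgb7-/- mice. Stem cell medians lie between -2.00 and -1.86, whereas Paneth medians run from 0.66 in mouse 2 to 2.06 in mouse 6.

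Absorptive genes rose from low levels. Of 16 digestive enzymes of the brush border, 14 rose and 1, Dpp4 (-0.45), fell (median 2.28). Sis, which encodes sucrase-isomaltase, measured 14.5, 2.81, 4.32, 5.82 and 1.74 CPM in GFP-high and 125, 67.5, 89.9, 69.0 and 49.2 CPM in GFP-low libraries (4.00 ± 0.22 (SE), adjusted p = 3.12e-08). Fabp1, a fatty acid carrier, measured 81.4, 30.7, 40.2, 41.3 and 30.2 CPM and 543, 310.0, 454, 374 and 334 CPM (3.24 ± 0.11 (SE), adjusted p = 3.02e-09). Mouse 2 had the highest level of both genes in both gates, and the gates did not overlap. Enpep (3.33), Mep1b (2.85) and Anpep (1.71), peptidases of the apical membrane, rose. The microvillus list gave 24 rises, with Krt20 (3.68), Espn (2.41), Cdhr5 (2.10) and Vil1 (0.80), and 1 fall, Myo7b (-0.43), among 30. Alpi, a marker of mature enterocytes, and 3 other enzymes of the list were only in the GFP-low table.

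Transport, lipid and detoxification genes followed the same direction. Of 39 nutrient transporters 27 rose and 6 fell. Slc6a19, the neutral amino acid carrier, rose by 3.79 ± 0.21 (SE), Slc51a, which exports bile acids, by 3.47 ± 0.19 (SE), and Slc2a5, the fructose carrier, by 2.11 ± 0.11 (SE). Slc12a2, Slc19a2 (-1.37), Slc27a2 (-0.99), Slc28a2 (-0.90), Slc16a10 (-0.69) and Slc19a1 (-0.25) fell. Of 38 genes of dietary lipid handling 30 rose, such as Rbp2 (4.11), Apoa4 (2.78) and Fabp2 (1.59), and 3 fell, Acsl3 (-0.78), Plin2 (-0.63) and Lrat (-0.55). Of 62 detoxification genes 47 rose, among them Gsta1 (4.36), Ugt2b5 (3.88) and Gsta4 (3.17), and 6 fell. Cyp2e1 was the main exception, at 11.7, 16.7, 17.5, 13.3 and 13.6 CPM in GFP-high and 0.879, 2.66, 1.59, 0.747 and 0.549 CPM in GFP-low libraries (-3.61 ± 0.24 (SE), adjusted p = 1.7e-07), and Ces1d (-2.23) and Ephx1 (-0.87) fell too. The HNF4 letters CAAAGTCCA, on either strand, were in 1 of 17 promoter windows of digestive enzymes, 1 of 51 of transporters and 0 of 36 of lipid genes, against 0.475% of all windows. Slc19a1 missed the threshold without the mouse block (adjusted p = 0.191). Slc19a1 missed it with 1 or more of the mice left out in turn (highest adjusted p = 0.134).

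Transcription factors of absorptive and regional identity gave 18 rises and 7 falls of 37. On library totals the split was 12 and 12, and the list median turned from 0.26 to -0.0049. Larger rises did not depend on it: Creb3l3 (2.49), which activates lipoprotein genes, Maf (2.23), the bile acid and xenobiotic receptors Nr1i3 (2.12) and Nr1h4 (1.18), Hnf4g (2.04), Creb3l2 (1.17), Ppara (1.0), Klf6 (0.92) and Zbtb7b (0.92). Hnf4g rose from 3.66, 2.98, 2.36, 3.20 and 3.71 CPM to 19.2, 12.7, 15.6, 11.04 and 9.06 CPM, whereas its paralogue Hnf4a did not pass (-0.13 ± 0.075 (SE)). Smaller rises on the TMM scale were those of Isx (0.73), Esrra (0.68), Elf3 (0.46), Rxra (0.39), Nr1h3 (0.33) and Klf5 (0.30), and Gata4 (0.25) and Zbtb7a (0.19) passed on the TMM scale and had the opposite sign on library totals. The falls included Esrrg (-1.67), Sox9, Ehf (-0.84), Nr3c1 (-0.47), Cdx2 (-0.38) and Gata6 (-0.29). Elf3, Rxra, Nr1h3 and Klf5 missed the threshold on library totals (adjusted p = 0.0567, 0.305, 0.572 and 0.749). Gata4 and Zbtb7a missed it without the mouse block (adjusted p = 0.11 and 0.163). Zbtb7a missed it with DESeq2 (adjusted p = 0.0624). Gata4 and Zbtb7a missed it with 1 or more of the mice left out in turn (highest adjusted p = 0.0684 and 0.192).

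Cell shape and contact genes changed by member. Krt20, Krt8 (1.37), Krt19 (1.14), Krt7 (1.05) and Krt18 (0.60) rose, and Krt23 (-0.39) fell. Among claudins, Cldn23 (2.69), Cldn3 (2.12), Cldn4 (1.74) and Cldn15 (0.77) rose and the leaky crypt claudin Cldn2 fell (-0.63). Epcam (-0.12 ± 0.083 (SE)) and Cdh1 (-0.0093 ± 0.076 (SE)), which define the epithelium, did not pass in either direction. Of 12 integrin subunits tested, Itga3 (1.05), Itgam (1.06), Itgb5 (0.82), Itga2 (0.41) and Itgb4 (0.33) rose, and Itga1 (-0.79), Itgb6 (-0.37) and Itga6 (-0.34) fell. Itgb1, the commonest beta subunit, differed by 0.042 ± 0.087 (SE) and did not pass. On library totals the median of the integrin list turned from 0.19 to -0.077. Of 7 annexins 5 rose, with Anxa2 at 2.71 and Anxa3 at 3.53, and 0 fell. Itgb5, Itga2 and Itgb4 missed the threshold on library totals (adjusted p = 0.105, 0.347 and 0.538). Krt23 and Itgb5 missed it without the mouse block (adjusted p = 0.314 and 0.0652). Krt18 missed it with DESeq2 (adjusted p = 0.057). Krt23, Itgb5 and Itga2 missed it with 1 or more of the mice left out in turn (highest adjusted p = 0.18, 0.111 and 0.0503).

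The machinery of protein secretion rose as a whole. The unfolded protein response senses misfolded protein in the endoplasmic reticulum and, through Xbp1, Atf6 and Atf4, raises chaperones and disposal factors. All 36 of its genes tested rose, with a median of 1.18 and medians of 0.91, 1.36, 1.29, 1.24 and 1.48 in the 5 mice. Hspa5, the chaperone BiP, measured 447, 424, 405, 361 and 368 CPM in GFP-high and 964, 1280.1, 1382, 857 and 1147 CPM in GFP-low libraries (1.47 ± 0.10 (SE), adjusted p = 2.64e-07). Xbp1 measured 64.8, 46.1, 53.7, 57.6 and 55.8 CPM and 134, 151, 161, 199 and 156 CPM (1.52 ± 0.10 (SE), adjusted p = 1.83e-07). The gates did not overlap for either gene. Manf (2.28), Pdia5 (2.10), Edem2 (1.82), Dnajc10 (1.79) and P4hb (1.56) rose, and Canx had a small rise (0.37) with overlapping gates. Canx missed the threshold on library totals (adjusted p = 0.3). Canx missed it without the mouse block (adjusted p = 0.266).

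The endoplasmic reticulum stress element is the sequence through which Atf6 and Xbp1 raise their target genes. It is printed for 2 chaperones because its letters were much more frequent in this list than elsewhere. The letters are CCAAT, then 9 bases, then CCACG, searched on both strands, and they include a CCAAT box. They lay in 9 of 30 windows of unfolded protein response genes (30.0%) and in 39 of all 32851 windows (0.119%), or 0.144% of the windows of tested genes. The CCAAT box alone was in 76.7% of the list's windows. The list was assembled from known members of the response, so the share describes the list and not these cells. The sequences are the 250 bases before the start of Hspa5 (chr2:34771840-34772089, plus strand) and of Hsp90b1 (chr10:86705445-86705694, minus strand), with both parts of the element in capitals, 65 bases before the start in Hspa5 and 212 and 107 bases before it in Hsp90b1, where the second copy is on the opposite strand.
Hspa5: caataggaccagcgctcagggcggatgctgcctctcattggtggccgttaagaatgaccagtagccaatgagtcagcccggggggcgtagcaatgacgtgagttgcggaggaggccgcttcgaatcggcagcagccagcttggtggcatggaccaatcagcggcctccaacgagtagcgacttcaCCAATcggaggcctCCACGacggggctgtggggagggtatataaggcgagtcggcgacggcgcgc
Hsp90b1: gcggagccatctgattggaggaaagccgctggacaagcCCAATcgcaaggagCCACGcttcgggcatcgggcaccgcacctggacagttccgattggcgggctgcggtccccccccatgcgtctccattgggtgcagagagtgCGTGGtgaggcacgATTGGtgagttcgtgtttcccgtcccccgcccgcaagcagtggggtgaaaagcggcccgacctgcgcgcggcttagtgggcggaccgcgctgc
Hsp90b1, the chaperone Grp94, measured 319, 284, 347, 347 and 357 CPM in GFP-high and 495, 516, 592, 492 and 550.4 CPM in GFP-low libraries (0.68 ± 0.079 (SE), adjusted p = 1.65e-05). Its gates did not overlap.

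Further along the secretory route, 63 of 70 genes of transport to the Golgi and of glycosylation rose and 2, Sec24b (-0.28) and B4galnt2 (-0.26), fell. Chst4 (3.90), which sulphates mucin sugars, St3gal4 (3.66), B3gnt7 (3.19), Kdelr3 (3.13) and C1galt1c1 (2.07) rose, and so did the coat subunits Sec13 (0.90) and Cope (0.93). Goblet, Paneth and enteroendocrine genes rose in the same libraries, and the part that these cells have in the result was not tested. Vacuolar ATPase subunits Atp6v0a1 (1.94), Atp6v0d1 (1.71) and Atp6v1b2 (0.90) and the protease Ctsc (1.40) rose in the lysosome list (31 rises and 4 falls of 52), whereas Gm2a (-1.32) and the cholesterol exporter Npc1 (-0.69) fell. B4galnt2 missed the threshold without the mouse block (adjusted p = 0.0731). Sec24b and B4galnt2 missed it with 1 or more of the mice left out in turn (highest adjusted p = 0.0963 and 0.156).

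Metabolic genes moved by pathway. Of 26 genes of cholesterol synthesis and uptake 24 rose and 0 fell (median 1.02). Hmgcs1, the enzyme at the start of the sterol branch, measured 43.1, 32.0, 31.4, 33.2 and 42.4 CPM in GFP-high and 83.2, 103, 83.5, 89.4 and 106 CPM in GFP-low libraries (1.36 ± 0.10 (SE), adjusted p = 3.35e-07), without overlap, and Cyp51 (1.46), Fdps (1.3), Sc5d (1.20) and Mvd (1.14) rose. The sterol element letters TCACCCCAC or TCACCCCTC, on either strand, were in 1 of 22 promoter windows of the list, against 1.04% of all windows. Of 28 genes of sugar breakdown 23 rose and 2 fell. The lactate dehydrogenase subunits moved apart, with Ldha at 1.27 ± 0.087 (SE) and Ldhb at -2.21 ± 0.30 (SE), while Pfkp (2.38), Aldoa (1.38) and Pck1 (2.85), an enzyme of glucose formation, rose and Fbp1 (-0.32) fell. In the list of fatty acid oxidation and ketone synthesis, Acot1 (-2.21), Acot2 (-0.99), Angptl4 (-0.56) and Oxct1 (-0.28) fell, and 12 of 31 rose, with Ppara and Cpt2 (0.84). Acot1 and Angptl4, known as targets of Ppara, fell while Ppara itself rose. Angptl4 missed the threshold with 1 or more of the mice left out in turn (highest adjusted p = 0.133).

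Fatty acid synthesis split within the pathway: Elovl6 (1.44), Scd2 (1.41), Elovl7 (1.0), Elovl1 (0.61) and Me1 (1.97) rose, and the desaturases Fads1 (-0.79) and Fads2 (-0.32), Elovl5 (-0.46) and Acss2 (-0.86) fell. Its median turned from 0.21 to -0.056 on library totals. Nuclear genes of the respiratory chain gave 41 rises and 2 falls of 77 on the TMM scale and 10 and 9 on library totals, where the median went from 0.25 to -0.012, so no direction can be given for the list. Cox7a1 (3.02), Cox8a (1.97) and Cox6a1 (1.54) were its largest rises. The 13 mitochondrially encoded genes gave 1 rise, mt-Atp8 (0.44), and 1 fall, mt-Cytb (-0.23). mt-Atp8 missed the threshold on library totals (adjusted p = 0.265). Fads2, mt-Atp8 and mt-Cytb missed it without the mouse block (adjusted p = 0.112, 0.0562 and 0.248). Fads2 and mt-Cytb missed it with 1 or more of the mice left out in turn (highest adjusted p = 0.178 and 0.121).

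Genes of mucosal defence rose in most cases, 18 of 26 against 4 that fell. Reg3g, a bactericidal lectin, measured 512, 413, 482, 980.5 and 405 CPM in GFP-high and 1581, 1955, 2022, 3980.4 and 2117 CPM in GFP-low libraries (2.07 ± 0.11 (SE), adjusted p = 3.00e-08), with no overlap. Reg3b (2.21), Reg3a (3.18), Reg1 (4.08), Gsdmc4 (3.08) and Il18 (2.35) rose, and the intracellular sensors Nod1 (-1.02) and Nlrp6 (-0.68), Casp4 (-0.74) and the chemokine Ccl20 (-0.75) fell. Interferon response genes gave 21 rises, among them Oasl1 (2.41), Zbp1 (2.29) and Irf7 (1.85), and 3 falls of 35. Ifitm3, a membrane protein that restricts virus entry, was the clearest fall, at 799, 1002, 1004, 1009 and 1035 CPM in GFP-high and 228, 266, 239, 250.2 and 334 CPM in GFP-low libraries (-1.89 ± 0.087 (SE), adjusted p = 1.19e-08). Ifitm2 (-0.98) and Gbp6 (-1.09) fell with it, and all GFP-low libraries were below the GFP-high range for the 3 genes. Ccl20 missed the threshold without the mouse block (adjusted p = 0.0894).

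Antigen presentation genes divided by class. Of 8 MHC class II genes 6 fell and 0 rose (median -1.04). H2-Aa, a class II chain, measured 56.1, 50.6, 162, 36.5 and 46.2 CPM in GFP-high and 14.8, 10.8, 49.0, 10.01 and 16.1 CPM in GFP-low libraries (-1.85 ± 0.10 (SE), adjusted p = 3.54e-08). Cd74, the invariant chain, measured 363, 412, 772, 377 and 292 CPM and 141, 132, 364, 123 and 163 CPM (-1.31 ± 0.11 (SE), adjusted p = 1.6e-06). Mouse 4 had the highest level of both genes in both gates, and its GFP-low libraries lay within the GFP-high range of the others, so the gates overlapped although all 5 mice showed a fall. H2-Eb1 (-1.76), the master regulator Ciita (-1.45), H2-DMa (-0.78) and H2-DMb1 (-0.77) fell likewise, and H2-Ab1 (-0.28 ± 0.13 (SE)) did not pass. Class I genes leaned the other way, with 16 rises and 2 falls of 26, including H2-K1 (0.83), Tap1 (0.69) and Psmb9 (0.61), and B2m did not pass (-0.11 ± 0.071 (SE)). H2-DMb1 missed the threshold without the mouse block (adjusted p = 0.0625).

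Markers of cells that the sort should remove were mostly absent. Cd3e and Trac (T cells), Cd79a and Ms4a1 (B cells), Csf1r and C1qa (myeloid cells), Col1a1 and Pdgfra (stroma), Pecam1 (endothelium), Hba-a1 (red cells) and Ptprc, which encodes CD45, are in neither table. Low counts of other listed markers were in 1 table only. In the GFP-high table these were Cd3g (7 to 54 counts), Fcer1g (7 to 37 counts) and Vwf (7 to 25 counts). In the GFP-low table they were Laptm5 (12 to 69 counts), Cd79b (28 to 44 counts) and Itga4 (9 to 35 counts), which encodes alpha4. Of 31 T cell and intraepithelial lymphocyte genes 8 were tested, with a summed level of 24.2 to 106 CPM in GFP-high and 20.7 to 104 CPM in GFP-low libraries. Lck (-1.48), Nkg7 (-0.70) and Gzma (-0.61) fell, and Rac2 (1.14) rose. Of 20 myeloid genes 4 were tested, at 25.6 to 40.3 CPM and 24.3 to 58.0 CPM, and of 17 stromal and endothelial genes Vim alone, at 1.6 to 4.16 CPM and 14.6 to 31.0 CPM (3.27 ± 0.24 (SE), adjusted p = 2.99e-07). The part of such cells in the fall of class II genes was not tested. Genes known to respond to tissue dissociation also moved: 25 of 33 rose, with Btg2 (1.59), Atf3 (1.42), Fos (0.65) and Dnajb1 (1.82), and 5 fell, with Hspa8 (-0.32). Their summed share was 0.817%, 0.791%, 0.745%, 0.701% and 0.688% in GFP-high and 0.922%, 0.895%, 0.909%, 0.679% and 0.804% in GFP-low libraries, higher in 4 of 5 mice, and its part in the other results was not tested. Nkg7, Gzma, Rac2 and Hspa8 missed the threshold without the mouse block (adjusted p = 0.321, 0.499, 0.0734 and 0.0684). Nkg7, Gzma and Hspa8 missed it with 1 or more of the mice left out in turn (highest adjusted p = 0.0743, 0.138 and 0.104).

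The same comparison in 5 Itgb7+/+ mice with the reporter gave 5840 of 11281 genes (51.8%). In both genotypes 2615 genes rose and 2428 fell, together 78.1% of the genes called without Itgb7 and 86.3% of those called with it, and 3 moved in opposite directions. A direct test of the difference between genotypes called 0 of 11284 genes with edgeR (0%), with 776 at an unadjusted p under 0.05 (6.88%) and a smallest adjusted p of 0.649. DESeq2 called 5: Chst4, Nfkbib, Pigt and Psmb4, which rose more without Itgb7, and Spry2, a brake on growth factor signalling. The smallest adjusted p of that DESeq2 test was 0.04995, so all 5 calls lay just under the threshold of 0.05. The first 4 are named after their values were seen. In simulated counts of the same design the edgeR test found 82.0% of 2-fold and 26% of 1.5-fold differences between genotypes, so smaller ones could be missed.

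The values of both genotypes are set side by side without a claim of difference. Lgr5 fell by 3.10 ± 0.29 (SE) in Itgb7+/+ mice and fell by 3.95 ± 0.14 (SE) without Itgb7, a difference of -0.87 ± 0.35 (SE) (unadjusted p = 0.0265, adjusted p = 0.701). The 5 smallest p-values belonged to Spry2 (-0.62 ± 0.12 (SE)), Uri1 (-0.58 ± 0.13 (SE)), Egfl7 (1.49 ± 0.34 (SE)), the gene model Gm42467 (-0.99 ± 0.22 (SE)) and Pitx1 (1.8 ± 0.41 (SE)), all at an adjusted p of 0.649. Pitx1 rose without Itgb7 (1.71 ± 0.29 (SE)) and stood at -0.10 ± 0.18 (SE) in Itgb7+/+ mice, where it did not pass. Lists leaned both ways. The median rise of Paneth genes was 1.46 without and 2.17 with Itgb7, smaller without it in 30 of 31 genes. Medians of goblet genes were 2.64 and 2.22, of enteroendocrine hormones 3.34 and 2.58, of tuft genes 2.55 and 1.62, and of stem cell genes -1.93 and -1.81, each without and with Itgb7. None of these genes passed the test of the difference, and genes of a list share their libraries.

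**Figure D5:**
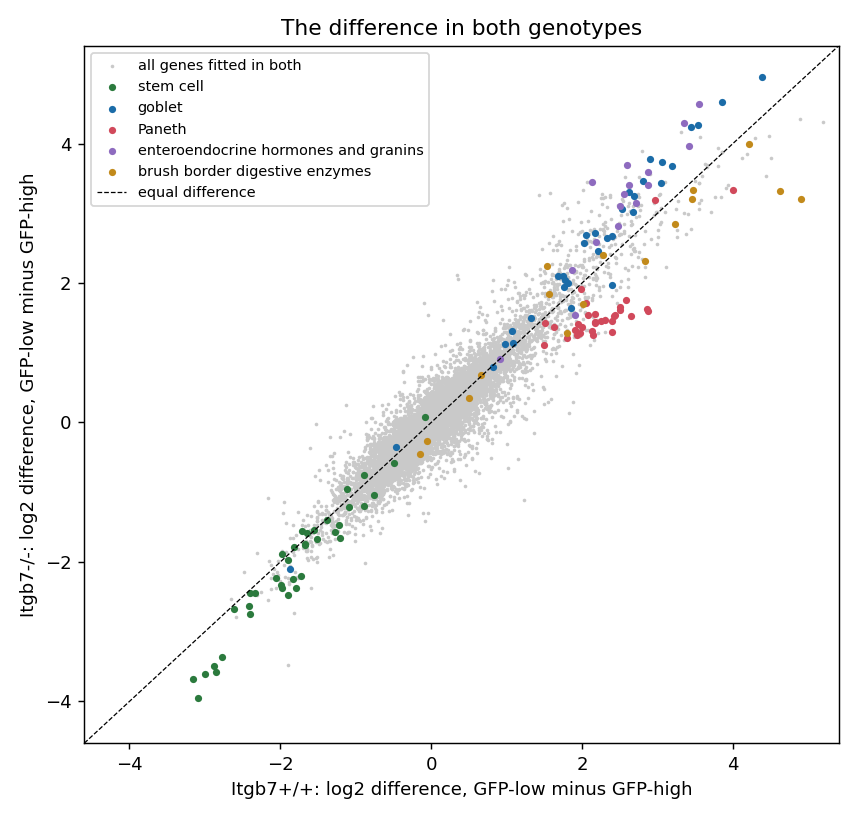
Each point is 1 gene, with its log2 difference, GFP-low minus GFP-high, in Itgb7+/+ mice on the horizontal axis and in Itgb7-/- mice on the vertical axis. The dashed line marks equal differences: 30 of 31 Paneth genes lie below it and most goblet and enteroendocrine genes above it, and no gene passed the edgeR test of the difference between genotypes.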

How the data were processed

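Sorted small-intestinal crypt cells were profiled by RNA-seq. The authors deposited expected counts per gene in 1 table per GFP gate. The submitters' processing notes name TopHat2, Bowtie2, RSEM and mm10, with no role or version stated. Of the values, 13.7% in the GFP-high table and 13.7% in the GFP-low table were not whole, and they were rounded. The lowest mean count of a gene was 17.0 and 16.8, so low genes had been left out of each table separately: 416 and 452 gene names are in 1 table only and were not compared. Names turned into dates (16 and 17 entries) and shared names (34 and 30 entries) were left out.

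The Itgb7-/- libraries were fitted in R 4.3.3 with edgeR 4.0.16 (TMM, default low-count filter, quasi-likelihood test, population plus mouse), with Benjamini-Hochberg adjustment over all genes tested. The difference between genotypes was the interaction over 20 libraries. DESeq2 1.42.0 was an alternative. The labels do not state that 1 number is 1 animal, but each GFP-high library correlated best with the GFP-low library of its own number (0.20 to 0.44). With the mouse as a block, p-values rest on how the difference between gates varies between these mice, with dispersion estimates that share information across genes. The SE is the absolute log2 difference divided by the square root of the F statistic. In simulated counts of the paired design, 74.0% of 1.5-fold and 94.0% of 2-fold differences were found. That simulation left 11084 of 11284 genes unchanged, whereas 57.2% were called in the data, so these shares need not hold here. The members and the 53 gene lists were chosen with earlier results of these data known. Of 1678 listed genes 1351 were tested, 82 were only in the GFP-low table, 17 only in the GFP-high table and 228 in neither. Genes were named by rule: the largest changes, and within lists the smallest p-values, the highest levels, exceptions and, for transcription factors, all that passed. Hsp90b1 was added for its promoter. Some genes that the rule names are not reported here.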

Additional observations from a re-analysis of the deposited data

Results flagged for a closer look

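In 22 of 397 sets of 5 values (log2 differences of the named genes, list medians and shares of counts), 1 mouse lay far from the other 4 by Dixon's criterion. Chance gives about 1 in 20 such sets, and genes share their libraries. Each value is followed by the range of the other 4 mice.

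Mouse 2 stood apart in the log2 difference of Angptl4 (0.50 against -0.98 to -0.61), Elovl1 (0.39 against 0.63 to 0.71), Ephb3 (-2.04 against -1.35 to -1.29) and Foxa3 (0.026 against 0.86 to 1.18). In mouse 2 the same held for Gins4 (0.73 against 0.022 to 0.22), Mxd1 (0.84 against 1.19 to 1.31), Ncl (-0.47 against -0.97 to -0.83) and Nod1 (-1.84 against -0.94 to -0.66). In mouse 2 the same held for Slc19a2 (-1.10 against -1.48 to -1.38), Slc51a (2.44 against 3.55 to 3.93), Sox4 (-1.97 against -1.58 to -1.44) and Wnt3 (-0.10 against 1.19 to 1.64). The secretory pathway and Golgi glycosylation list median was 0.60 in mouse 2 and 0.87 to 0.93 in the others. The brush border digestive enzymes share of counts in GFP-low was 0.0983% in mouse 2 and 0.0558% to 0.0665% in the others. Mouse 3 stood apart in the log2 difference of Klf5 (0.066 against 0.29 to 0.38). The circadian clock list median was -0.11 in mouse 3 and 0.26 to 0.35 in the others. Mouse 4 stood apart in the log2 difference of Tead1 (-0.073 against -0.52 to -0.40). Mouse 5 stood apart in the log2 difference of Cdx2 (0.14 against -0.57 to -0.38), Ehf (-1.08 against -0.82 to -0.74), Hspa8 (-0.92 against -0.28 to -0.057) and Scn2b (-3.08 against -2.57 to -2.46). The goblet share of counts in GFP-high was 0.828% in mouse 5 and 0.465% to 0.528% in the others. Mouse 2 made up 14 of these values. No cause was tested.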

How the results depend on the processing

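Without the mouse block, 2954 genes were higher and 2748 lower in GFP-low cells, and the block moved neither count by more than 1.5 times. Leaving out 1 mouse gave 2903 to 3198 higher and 2716 to 3025 lower. On library totals, 1994 were higher and 5268 lower without Itgb7, and 1434 and 5579 with it. On totals without the Paneth and goblet lists the counts were 2750 and 3766. For the difference between genotypes, DESeq2 called 4 genes higher and 1 lower, with a smallest adjusted p of 0.04995. Leaving out 1 mouse gave 0 calls by edgeR, with smallest adjusted p-values of 0.109 to 0.981. Of 311 named genes that passed, 269 kept direction and call under every alternative. Calls lost follow with their adjusted p. Without the block (24 genes) these were B4galnt2 (0.0731), Canx (0.266), Ccl20 (0.0894), Ccne1 (0.202), Cenpa (0.062), Fads2 (0.112), Fzd9 (0.146), Gata4 (0.11), Gins4 (0.11), Gzma (0.499), H2-DMb1 (0.0625), Hbegf (0.108), Hspa8 (0.0684), Itgb5 (0.0652), Krt23 (0.314), Mfng (0.0689), Nkg7 (0.321), Rac2 (0.0734), Slc19a1 (0.191), Smad7 (0.133), Spry2 (0.0681), Zbtb7a (0.163), mt-Atp8 (0.0562) and mt-Cytb (0.248). On library totals (20 genes) they were Canx (0.3), Ccnd2 (0.687), Ccne1 (0.794), Cenpa (0.114), Elf3 (0.0567), Fzd4 (0.0955), Gins4 (0.966), Hbegf (0.302), Itga2 (0.347), Itgb4 (0.538), Itgb5 (0.105), Klf5 (0.749), Nr1h3 (0.572), Pdx1 (0.224), Psen2 (0.335), Rfng (0.0644), Rrm2 (0.167), Rxra (0.305), Smad7 (0.286) and mt-Atp8 (0.265). DESeq2 ended Ccne1 (0.0634), Gins4 (0.0508), Itln1 (0.0541), Krt18 (0.057), Lyz1 (0.0584) and Zbtb7a (0.0624), its size factors Zbtb7a (0.0535), the fit of all 20 libraries Angptl4 (0.108), B4galnt2 (0.0964), Ccne1 (0.0934), Krt23 (0.0999), Slc19a1 (0.0583), Zbtb7a (0.124), mt-Atp8 (0.0619) and mt-Cytb (0.151), and totals without Paneth and goblet genes Ccne1 (0.142), Gata4 (0.0975), Gins4 (0.182), Pdx1 (0.0664), Smad7 (0.0673) and Zbtb7a (0.291). Without mouse 2 these were Ccne1 (0.12), Gins4 (0.177), Gzma (0.138), Itgb5 (0.0873), Krt23 (0.154), Nkg7 (0.0582), Pdx1 (0.0527), Slc19a1 (0.134) and mt-Cytb (0.0891). Without mouse 3 these were Angptl4 (0.117), B4galnt2 (0.0832), Fads2 (0.0736), Gzma (0.0607), Hspa8 (0.0574), Itga2 (0.0503), Itgb5 (0.111), Krt23 (0.0573), Nkg7 (0.0743), Slc19a1 (0.0542), Tead1 (0.062), Zbtb7a (0.08) and mt-Cytb (0.0907). Without mouse 4 these were Angptl4 (0.0799), Ccne1 (0.0646), Fads2 (0.12), Fzd9 (0.0569), Gins4 (0.078), Gzma (0.118), Mfng (0.0546), Nkg7 (0.0525), Pdx1 (0.125), Sec24b (0.0963), Smad7 (0.0761), Zbtb7a (0.192) and mt-Cytb (0.078). Without mouse 5 these were Angptl4 (0.133), B4galnt2 (0.156), Ccne1 (0.0796), Fads2 (0.178), Gata4 (0.063), Gins4 (0.0586), Hbegf (0.0728), Hspa8 (0.104), Itgb5 (0.0576), Krt23 (0.18), Pdx1 (0.0844), Sec24b (0.0625), Slc19a1 (0.0776), Smad7 (0.12) and Zbtb7a (0.0781). Without mouse 6 these were Angptl4 (0.0976), B4galnt2 (0.156), Ccne1 (0.107), Fads2 (0.076), Fzd4 (0.0819), Gata4 (0.0684), Gins4 (0.0783), Hbegf (0.066), Hspa8 (0.0694), Krt23 (0.0609), Slc19a1 (0.0722), Smad7 (0.0612), Tead1 (0.0716), Zbtb7a (0.128) and mt-Cytb (0.121).

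List medians turned sign on library totals for absorptive and regional transcription factors (-0.0049), integrin subunits (-0.077), fatty acid synthesis (-0.056) and respiratory chain, nuclear (-0.012). Log2 differences of single genes turned sign as follows. On library totals, Ddx3y (-0.18), Erbb2 (-0.24), Gata4 (-0.014), Itgb1 (-0.22) and Zbtb7a (-0.074). On totals without Paneth and goblet genes, Erbb2 (-0.067) and Itgb1 (-0.047). With 1 mouse left out in turn, the lowest and highest differences were those of Cdh1 (-0.042 to 0.037), Egfl7 (-0.080 to 0.035), Eif2s3y (-0.22 to 0.056), Erbb2 (-0.0071 to 0.046) and Itgb1 (-0.010 to 0.092), none of them a gene that passed. The cause was not tested. With 20900404 counts or more a library, depth limits mainly genes near the floor of the tables.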
